A study of Mus musculus with 12 samples.

Results

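The expression of 53 transcription factor genes that pattern the head mesenchyme was examined in immortalized mouse embryonic palatal mesenchyme (iMEPM) cells. The genes were chosen by name, as the rows of the gene table whose symbol is one of 53 homeobox, T-box, forkhead, bHLH, AP-2, zinc finger, SOX and nuclear receptor factors or their coregulators, and all 53 were found among the 51490 genes of the table. Of these, 47 passed the filter on low counts (edgeR's filterByExpr, minimum count 10) and were tested, while *Dlx4*, *Meox2*, *Tbx22*, *Hand2*, *Tfap2b* and *Sox10* did not. Between the scramble and shSrsf3 lines, most of the tested genes differed in level, in both directions. Without ligand 29.8% were called higher and 46.8% lower in shSrsf3 samples, beside 22.2% and 23.7% of all genes tested. With ligand these shares were 29.8% and 38.3%, beside 20.3% and 20.7%. *Shox2* and *Foxp2* were more than 2-fold higher and *Alx4* and *Tfap2a* more than 2-fold lower in shSrsf3 samples, with and without ligand. Upon 1 hr of PDGF-AA, *Snai1* was the only member called in both lines, and it rose in each.

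The palate, jaws and midface are built from mesenchyme that descends largely from the cranial neural crest. Regional identity in this mesenchyme is set by combinations of transcription factors. Nested expression of *Dlx* genes distinguishes upper from lower jaw, and *Alx* genes and *Pax3* mark the frontonasal region. *Lhx* genes and *Barx1* mark the oral maxillary and mandibular mesenchyme. *Msx1* and *Shox2* are found toward the front of the palatal shelves and *Barx1*, *Meox2*, *Tbx22* and *Mn1* toward the back. PDGFRα is a receptor tyrosine kinase of this mesenchyme, PDGF-AA is its ligand, and Srsf3 is an SR protein that binds RNA and regulates splicing.

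The RNA-seq data cover 4 conditions with 3 samples each. The scramble line carried a control shRNA and the shSrsf3 line an shRNA against *Srsf3*, and each line was sampled without ligand (-PDGF-AA) and at 1 hr after addition of PDGF-AA to 10 ng/mL (+PDGF-AA). All 12 samples share the origin of the cells, a male *Cdkn2a*-/- embryo, as well as a lentiviral vector, selection with puromycin, and sorting for GFP. Each shRNA was studied in 1 stable line, so that the shRNA and the line cannot be told apart, and p-values measure the spread between cultures of these lines.

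Total counts ranged from 30958870 to 76123207 per sample. *Srsf3* itself was measured at 207, 199 and 212 CPM in the scramble -PDGF-AA samples and 162, 164 and 161 CPM in the shSrsf3 -PDGF-AA samples, and at 221, 215 and 231 CPM in scramble and 164, 161 and 170.0 CPM in shSrsf3 samples with ligand, so that the shSrsf3 samples were lower without overlap in both conditions (log2 fold changes -0.34 and -0.43). According to the methods of the study, 3 libraries mapped at a lower rate than the other 9: replicates 1 and 2 of scramble -PDGF-AA and replicate 2 of scramble +PDGF-AA. Of the 14 mesenchyme markers, *Lum* was close to 0 (mean 0.141 CPM) and the others were expressed, with a summed level over the list of 60600 to 62500 CPM in scramble and 52000 to 55400 CPM in shSrsf3 -PDGF-AA samples. In both conditions 7 of them were called lower and 2 higher in shSrsf3 samples. *Pdgfra*, the gene of the receptor, was among those lower (log2 fold changes -0.53 and -0.36). Upon ligand *Pdgfra* was called lower in scramble cells (-0.30) and not called in shSrsf3 cells (-0.14). Of the markers of other cell types, the 10 epithelial markers summed to 5.25 to 6.28 CPM in scramble and 3.34 to 3.69 CPM in shSrsf3 -PDGF-AA samples, with *Esrp1* at 0 in every sample. *Cdh1*, an epithelial cadherin, was lower in shSrsf3 samples (log2 fold changes -2.25 and -1.95), at 0.484 beside 2.36 CPM in scramble samples without ligand. It was 1 of 3 epithelial genes tested. The others, *Epcam* (-0.22 and -0.44) and *Trp63* (-0.10 and -0.21), were not called in either condition. Of the remaining marker lists, 4 of 6 endothelial genes were tested (2 higher and 1 lower in both conditions), 1 of 6 muscle (higher), 4 of 8 glial and neuronal (2 lower), 2 of 6 melanocyte (1 lower in both, another higher with ligand) and 2 of 6 blood genes (neither called). The background for all of these marker lists is that 22.2% of all genes tested were higher and 23.7% lower without ligand. With ligand the shares were 20.3% and 20.7%. The part of these marker differences in the results below was not tested.

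The members spanned a wide range of expression. Levels between genes were compared as CPM (counts scaled to library size) per kb of the Ensembl canonical transcript, averaged over the 12 samples. On this scale 19 of the 53 genes had a level of at least 10. The highest were *Foxp1*, a forkhead repressor, at 122, *Snai1*, a zinc finger repressor of epithelial genes, at 77.7, *Prrx1*, a paired-related homeobox factor of limb and face mesenchyme, at 76.2, *Nr2f2*, a COUP-TF nuclear receptor, at 43.8, and *Twist1*, a bHLH factor of cranial mesenchyme, at 38.8. *Osr1*, an odd-skipped zinc finger factor, had the same value as *Twist1* at this precision. The rank of *Foxp1* depends on the length used: its canonical transcript has 1848 bases and its longest has 8175, and per kb of the longest transcript *Foxp1* was at 27.5 and ranked below *Snai1*, *Prrx1*, *Nr2f2*, *Twist1* and *Tbx15*, while *Osr1* was at 12.5. *Foxp1* itself read 256, 250.0 and 226 CPM in scramble and 211, 221 and 225 CPM in shSrsf3 -PDGF-AA samples, and with ligand 216, 234 and 223 CPM in scramble and 208, 210.0 and 220.0 CPM in shSrsf3 samples. The groups were apart without ligand and overlapped with ligand.

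At the other end, *Tbx22*, mutated in X-linked cleft palate, *Hand2*, a bHLH factor of the distal lower jaw, and *Sox10*, a neural crest and glial factor, had 0 counts in all 12 samples. The 3 other untested genes were close to 0: *Dlx4* had 1 to 10 counts per sample, *Meox2* 0 to 12 and *Tfap2b* 0 to 14. *Pitx1* and *Dlx3* passed the filter with mean counts of 5.417 and 9.417 per sample, through the groups in which they were highest. The remaining 45 tested genes had mean counts from 40.3 for *Tbx2* to 22940 for *Prrx1*.

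**Figure D1:**
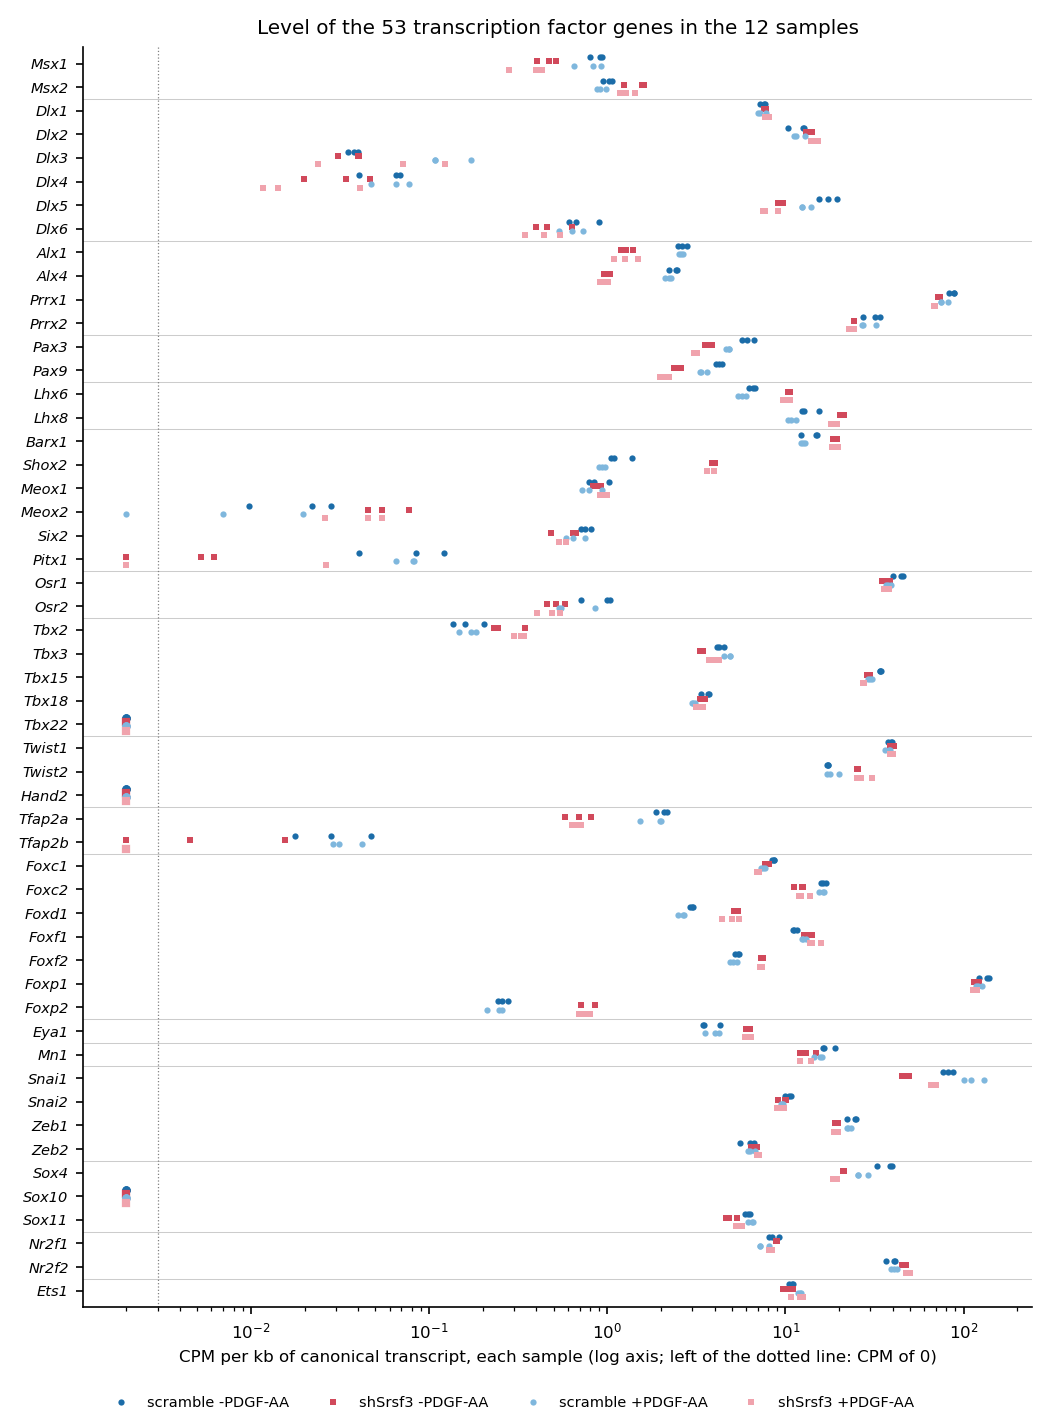
Level of each of the 53 genes in each of the 12 samples, in CPM per kb of canonical transcript on a log axis, with circles for scramble and squares for shSrsf3 samples, dark without and light with PDGF-AA. *Foxp1*, *Snai1* and *Prrx1* lie furthest to the right, and *Tbx22*, *Hand2* and *Sox10* lie at a CPM of 0 in every sample, left of the dotted line.

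Homeobox genes form the largest class among the members. The codons for the end of the DNA-recognition helix were read from the annotated coding sequence of 21 of them (GENCODE M39, GRCm39) and are shown for genes described below, since the residue of the codon in capitals is the one by which homeodomains with different DNA preferences are classed. Each run has 30 bases, 5′ to 3′ on the coding strand:

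Msx1: tggttcCAGaaccgtcgcgctaaggccaag
Msx2: tggttcCAGaaccgaagggctaaggcgaaa
Dlx5: tggtttCAGaacaaaagatccaagatcaag
Alx4: tggttcCAGaaccggagggccaagtggcga
Lhx6: tggtttCAAaactgccgagcgcgtcataaa
Shox2: tggtttCAAaatcgaagagctaagtgtaga
Pax3: tggtttAGCaaccgccgtgcaagatggagg
Pitx1: tggttcAAGaaccggcgagccaaatggcgc

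The codon in capitals encodes glutamine in 18 of the 21 genes, lysine in *Pitx1* and *Six2*, and serine in *Pax3*. *Msx1* and *Shox2*, with a glutamine codon at this place, differed between the lines in opposite directions, as described below. Reads could be split between family members to a small extent only: at most 7.37% of the 31-base words in the transcripts of any member occurred in transcripts of another gene.

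The first question was how the members differ between the scramble and shSrsf3 lines in the same ligand condition. Without ligand, 14 of the 47 tested members (29.8%) were higher in shSrsf3 samples, against 22.2% of all 15037 genes tested, and 22 (46.8%) were lower, against 23.7% (adjusted p of 0.05 or less in edgeR's quasi-likelihood test). With ligand, 14 (29.8%) were higher, against 20.3% of all genes, and 18 (38.3%) were lower, against 20.7%. A change of at least 2-fold was added as a second criterion: 2 members were higher and 4 lower without ligand, where 2.99% and 2.76% of all genes were, and 2 were higher and 5 lower with ligand, where 2.85% and 2.57% of all genes were. *Pitx1*, which passed the filter through its scramble samples alone, is among the lower genes in each of these counts. In 14 members all 3 shSrsf3 -PDGF-AA samples lay above all 3 scramble samples (26.2% of all genes) and in 23 they lay below (27.1%). With ligand these counts were 16 (25.5%) and 19 (27.1%). The median log2 fold change of the tested members was -0.11 without and -0.07 with ligand, beside -0.02 and -0.01 over all genes, while the median size of the change, regardless of direction, was 0.43 in both conditions, beside 0.20 and 0.19. The tested members had a median mean count of 1185 per sample, beside 877 over all genes tested, and the part of this difference in the shares above was not tested. In such bulk samples, fewer cells of a type and less RNA per cell cannot be told apart.

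The comparisons without and with ligand have no sample in common, although both compare the same pair of lines. All 32 members called with ligand were also called without ligand in the same direction, 14 higher and 18 lower, which is 88.9% of the 36 called without ligand. *Osr1*, *Osr2*, *Foxc1* and *Foxp1* were called lower without ligand alone. In neither condition were *Dlx1*, *Dlx3*, *Dlx6*, *Meox1*, *Tbx18*, *Twist1*, *Six2*, *Snai2*, *Zeb2*, *Nr2f1* and *Ets1* called. The fitted change had the same sign in both conditions in 44 of the 47 genes. The like shares over all genes were not computed, so this agreement is not read as particular to the members. Without the 3 libraries of lower mapping rate, 15 members were higher and 20 lower without ligand, and 16 and 19 with ligand. The shares of all genes called in this fit are not given. Among the comparisons without ligand, *Osr1* (log2 fold change -0.12, adjusted p = 0.138), *Foxp1* (-0.05, adjusted p = 0.451), *Tbx2* (0.74, adjusted p = 0.102) and *Pitx1* were then no longer called, and *Dlx6* (-0.84, adjusted p = 0.0293), *Zeb2* (0.25, adjusted p = 0.00737) and *Nr2f1* (0.14, adjusted p = 0.0462) were called. With ligand, *Dlx1* (0.15, adjusted p = 0.0107) and *Nr2f1* (0.20, adjusted p = 0.00174) were called in addition. The 19 lower with ligand also include a member outside the 47, from those close to 0, since this fit filtered the genes anew. Without ligand the log2 fold changes of *Dlx2*, *Prrx2* and *Osr2*, still called, became 0.38, -0.19 and -0.48.

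**Figure D2:**
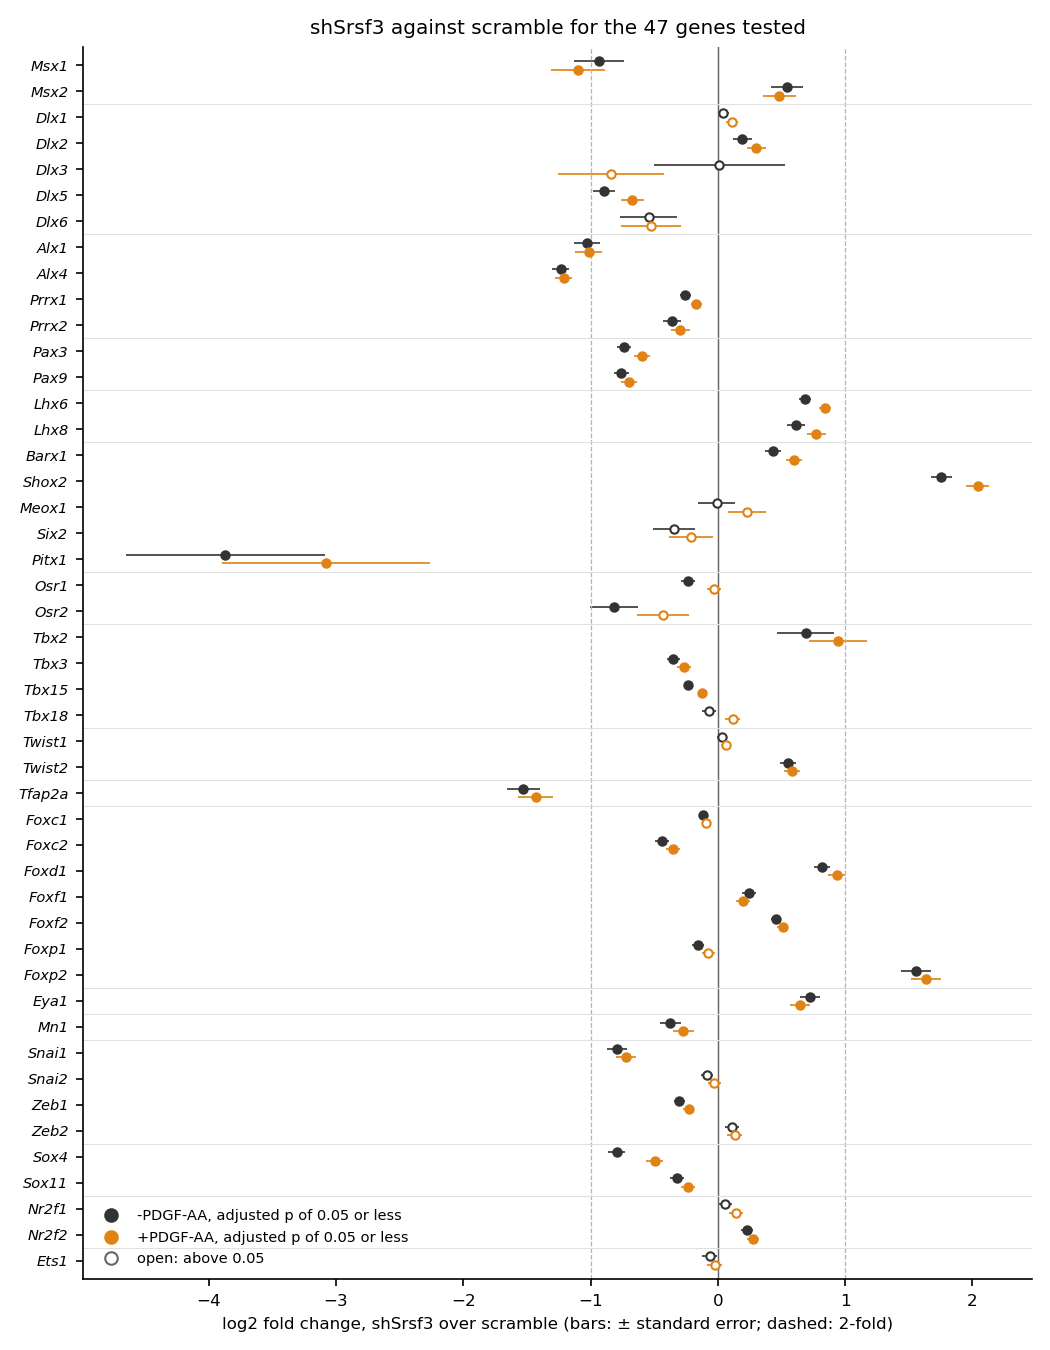
Log2 fold change of shSrsf3 over scramble samples for the 47 tested genes, grouped by family, without (black) and with PDGF-AA (orange). Bars are standard errors, filled points have an adjusted p of 0.05 or less, and dashed lines mark 2-fold. *Shox2* and *Foxp2* lie beyond 2-fold on the right and *Alx4* and *Tfap2a* on the left in both conditions. *Pitx1*, furthest to the left, rests on few counts and passed the filter only through its scramble samples.

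Among the *Msx* genes, which encode homeobox repressors downstream of BMP signaling, the paralogues moved in opposite directions. *Msx1*, required for palate growth, read 1.77, 1.54 and 1.81 CPM in the scramble -PDGF-AA samples and 0.777, 1 and 0.913 CPM in the shSrsf3 -PDGF-AA samples. With ligand it read 1.26, 1.79 and 1.61 CPM in scramble and 0.775, 0.836 and 0.547 CPM in shSrsf3 samples. All shSrsf3 samples were below all scramble samples in both conditions (log2 fold changes -0.93 ± 0.20 and -1.10 ± 0.21 (SE) without and with ligand, adjusted p = 0.00159 and 0.000878), and the change passed 2-fold with ligand alone. *Msx2*, a factor of skull growth and tooth development, read 2.6, 2.53 and 2.34 CPM in the scramble -PDGF-AA samples and 3.07, 3.87 and 3.97 CPM in the shSrsf3 -PDGF-AA samples, and with ligand 2.16, 2.25 and 2.41 CPM in scramble and 3.13, 2.91 and 3.51 CPM in shSrsf3 samples. Its shSrsf3 samples were all above the scramble samples (log2 fold changes 0.54 ± 0.12 and 0.48 ± 0.13 (SE) without and with ligand, adjusted p = 0.00297 and 0.00846). The difference between paralogues was not itself tested, here or for the pairs below.

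The *Dlx* genes lie in pairs that share a chromosomal neighbourhood. *Dlx1* and *Dlx2*, expressed in upper and lower jaw mesenchyme, are 9.426 kb apart on chromosome 2 and were expressed at mean levels of 7.58 and 12.9 CPM per kb. *Dlx1* was not called in either condition (log2 fold changes 0.04 and 0.11, adjusted p = 0.45 and 0.0602). *Dlx2* was higher in shSrsf3 samples by a small margin (log2 fold changes 0.19 ± 0.07 and 0.30 ± 0.08 (SE) without and with ligand, adjusted p = 0.0484 and 0.00567). *Dlx5* and *Dlx6*, which specify the lower jaw, are 9.235 kb apart on chromosome 6. *Dlx5* read 24.9, 27.8 and 22 CPM in the scramble -PDGF-AA samples and 13.9, 13 and 13.1 CPM in the shSrsf3 -PDGF-AA samples, and with ligand 17.7, 20.0 and 17.6 CPM in scramble and 10.7, 11 and 13 CPM in shSrsf3 samples, and fell without overlap (log2 fold changes -0.90 ± 0.09 and -0.67 ± 0.09 (SE) without and with ligand, adjusted p = 2.20e-06 and 5.60e-05). *Dlx6*, with a mean level of 0.575 CPM per kb beside 11.9 for *Dlx5*, read 1.56, 1.7 and 2.3 CPM in the scramble -PDGF-AA samples and 1.17, 1.62 and 1.02 CPM in the shSrsf3 -PDGF-AA samples, and with ligand 1.63, 1.88 and 1.38 CPM in scramble and 0.882, 1.39 and 1.13 CPM in shSrsf3 samples. Its groups overlapped in both conditions and it was not called (log2 fold changes -0.54 and -0.52, adjusted p = 0.0625 and 0.0961). *Dlx3* and *Dlx4*, the pair of the most distal arch, 15.15 kb apart on chromosome 11, stayed below 0.5 CPM in every sample. For *Dlx4*, 13 counts in the shSrsf3 and 19 in the scramble -PDGF-AA samples gave a scramble to shSrsf3 ratio of 1.85 after scaling to depth, with an exact 95% interval of 0.868 to 4.08 that covers counting error only, and with ligand the ratio was 2.89 (1.09 to 9.64).

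All 4 *Alx* and *Prrx* genes were lower in shSrsf3 samples in both conditions. *Alx4*, a paired-type homeobox factor of the frontonasal mesenchyme, read 11.7, 12.9 and 12.7 CPM in the scramble -PDGF-AA samples and 5.05, 5.47 and 5.34 CPM in the shSrsf3 -PDGF-AA samples. With ligand it read 12, 11.6 and 11.1 CPM in scramble and 4.76, 5.33 and 4.89 CPM in shSrsf3 samples. The highest shSrsf3 sample was thus below the lowest scramble sample by a wide margin (log2 fold changes -1.23 ± 0.07 and -1.21 ± 0.07 (SE) without and with ligand, adjusted p = 7.54e-09 and 1.70e-08). *Alx1*, whose loss disrupts the midface, read 6.96, 6.6 and 6.25 CPM in the scramble -PDGF-AA samples and 3.19, 3.48 and 2.98 CPM in the shSrsf3 -PDGF-AA samples, and with ligand 6.49, 6.66 and 6.28 CPM in scramble and 3.71, 3.13 and 2.74 CPM in shSrsf3 samples. These groups did not overlap either (log2 fold changes -1.03 ± 0.10 and -1.01 ± 0.11 (SE) without and with ligand, adjusted p = 2.44e-06 and 4.56e-06), and the change was close to 2-fold. *Prrx1*, the most abundant homeobox gene among the members, read 527, 526 and 492 CPM in the scramble -PDGF-AA samples and 430.0, 438 and 426 CPM in the shSrsf3 -PDGF-AA samples, and with ligand 444, 489 and 446 CPM in scramble and 413, 408 and 405 CPM in shSrsf3 samples. The decrease was small but larger than the spread between samples (log2 fold changes -0.25 ± 0.04 and -0.17 ± 0.04 (SE) without and with ligand, adjusted p = 0.000226 and 0.0049). *Prrx2* read 147, 155 and 126 CPM in the scramble -PDGF-AA samples and 111, 111 and 112 CPM in the shSrsf3 -PDGF-AA samples, and with ligand 124, 149 and 126 CPM in scramble and 105, 109 and 112 CPM in shSrsf3 samples, and fell to a like extent (log2 fold changes -0.36 ± 0.07 and -0.29 ± 0.07 (SE) without and with ligand, adjusted p = 0.00134 and 0.00578). On the genome, *Alx4* (chr2:93472729-93511685, GRCm39) overlaps the oppositely transcribed gene *Ext2*, and per the methods the libraries were stranded.

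Both *Pax* genes were also lower. *Pax3*, a paired box factor of the neural crest, read 19.3, 22.4 and 20.4 CPM in the scramble -PDGF-AA samples and 11.9, 12.4 and 13 CPM in the shSrsf3 -PDGF-AA samples, and with ligand 16.3, 16.2 and 15.7 CPM in scramble and 10.7, 10.7 and 10.4 CPM in shSrsf3 samples. No shSrsf3 sample reached the lowest scramble sample of its condition (log2 fold changes -0.74 ± 0.06 and -0.60 ± 0.06 (SE) without and with ligand, adjusted p = 2.24e-07 and 3.24e-06). *Pax9*, required for tooth and secondary palate formation, read 17.1, 18.3 and 17.7 CPM in the scramble -PDGF-AA samples and 10.8, 9.95 and 10.7 CPM in the shSrsf3 -PDGF-AA samples, and with ligand 14.1, 15.2 and 13.9 CPM in scramble and 8.95, 9.32 and 8.27 CPM in shSrsf3 samples. Its groups did not overlap either (log2 fold changes -0.76 ± 0.06 and -0.70 ± 0.06 (SE) without and with ligand, adjusted p = 2.68e-07 and 1.09e-06).

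In contrast, the LIM homeobox genes of the oral mesenchyme were higher in shSrsf3 samples. *Lhx6* read 23.8, 24.3 and 22.6 CPM in the scramble -PDGF-AA samples and 37.3, 38.2 and 37.8 CPM in the shSrsf3 -PDGF-AA samples, and with ligand 20.4, 21.5 and 19.4 CPM in scramble and 34.8, 36.8 and 38.3 CPM in shSrsf3 samples. Every shSrsf3 sample exceeded every scramble sample (log2 fold changes 0.68 ± 0.05 and 0.84 ± 0.05 (SE) without and with ligand, adjusted p = 8.79e-08 and 1.62e-08). *Lhx8*, required for closure of the palate, read 21.3, 22 and 26.8 CPM in the scramble -PDGF-AA samples and 36.7, 35.8 and 35.2 CPM in the shSrsf3 -PDGF-AA samples, and with ligand 18.5, 17.8 and 19.9 CPM in scramble and 33.7, 31.3 and 31.1 CPM in shSrsf3 samples. Replicate 3 of scramble -PDGF-AA was the highest scramble sample, and it was still below all shSrsf3 samples (log2 fold changes 0.61 ± 0.07 and 0.77 ± 0.07 (SE) without and with ligand, adjusted p = 1.22e-05 and 2.04e-06). *Barx1*, a homeobox factor of the molar and posterior palate mesenchyme, rose likewise, from 20.9 ± 2.31 to 28.1 ± 0.678 CPM without and from 18.7 ± 0.427 to 28.3 ± 1.16 CPM with ligand (SD, n = 3; log2 fold changes 0.43 ± 0.06 and 0.60 ± 0.07 (SE) without and with ligand, adjusted p = 0.000112 and 7.54e-06).

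The largest increase among the tested members was that of *Shox2*, a homeobox factor of the anterior palate and of limb bone growth. *Shox2* read 4.55, 3.61 and 3.5 CPM in the scramble -PDGF-AA samples and 13.3, 12.8 and 13 CPM in the shSrsf3 -PDGF-AA samples. With ligand it read 2.99, 3.1 and 3.22 CPM in scramble and 13.2, 13.1 and 12 CPM in shSrsf3 samples. The shSrsf3 samples were more than 2-fold above every scramble sample (log2 fold changes 1.76 ± 0.09 and 2.04 ± 0.09 (SE) without and with ligand, adjusted p = 3.19e-09 and 1.14e-09). *Shox2* (chr3:66879058-66889284, GRCm39) lies opposite *Rsrc1*, which is expressed in these cells, and none of its 31-base words occurred in transcripts of another gene. Of the other homeobox genes, *Meox1*, a somite factor (1.99 ± 0.275 and 1.98 ± 0.101 CPM in scramble and shSrsf3 -PDGF-AA samples), and *Six2*, a progenitor factor (1.64 ± 0.0997 and 1.29 ± 0.216 CPM; SD, n = 3), were not called in either condition. *Meox2* was not tested: it had 26 counts in shSrsf3 and 7 in scramble -PDGF-AA samples, a scramble to shSrsf3 ratio of 0.341 (exact 95% interval 0.125 to 0.807, counting error only), and with ligand 10 and 4 counts, a ratio of 0.222 (0.0509 to 0.771). *Pitx1*, a homeobox factor of the lower jaw and hindlimb, had 8, 13 and 6 counts in the scramble and 1, 1 and 0 in the shSrsf3 -PDGF-AA samples, and 12, 9 and 13 and 0, 0 and 2 with ligand, so that both shSrsf3 groups summed to 2 counts. Per unit of depth the scramble samples were 17.1-fold higher without ligand (exact 95% interval 4.3 to 148, counting error only) and 9.45-fold higher with ligand (2.42 to 81.2). Since *Pitx1* passed the filter only through its scramble samples, it had to differ, and no test is given for it.

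**Figure D3:**
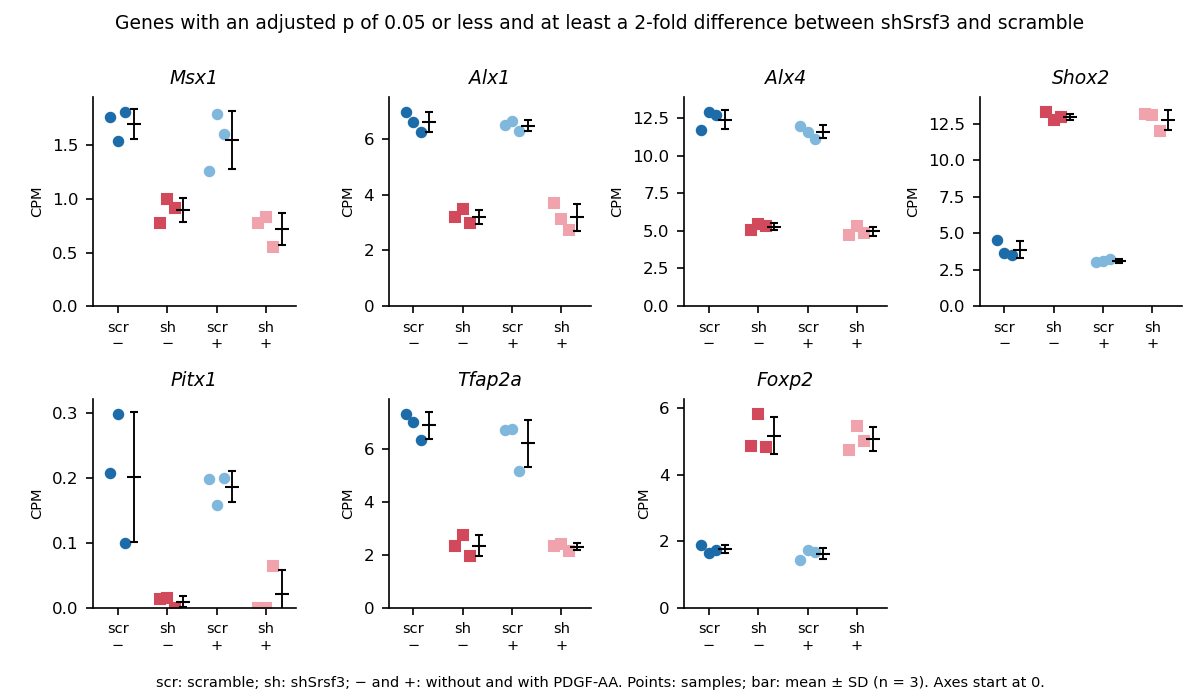
CPM in each sample for the 7 genes with an adjusted p of 0.05 or less and at least a 2-fold difference between shSrsf3 and scramble samples in either ligand condition, each with its own axis from 0, and mean ± SD (n = 3) beside the points. *Shox2* and *Foxp2* are higher in all 6 shSrsf3 samples than in any scramble sample and the other 5 genes are lower. *Pitx1* stays under 0.3 CPM throughout and passed the filter only through its scramble samples, so its call is no support for a difference.

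The T-box genes were split. *Tbx2*, a repressor and target of BMP signaling, was higher in shSrsf3 samples, at 0.603 ± 0.123 and 0.992 ± 0.234 CPM without and 0.605 ± 0.0678 and 1.17 ± 0.0752 CPM with ligand (SD, n = 3; log2 fold changes 0.69 ± 0.23 and 0.95 ± 0.23 (SE) without and with ligand, adjusted p = 0.0237 and 0.00429). *Tbx3*, its close relative, was lower (log2 fold changes -0.35 ± 0.05 and -0.27 ± 0.05 (SE) without and with ligand, adjusted p = 0.00015 and 0.00141). *Tbx15*, a factor of skeletal and dermal mesenchyme, read 134, 135 and 134 CPM in the scramble -PDGF-AA samples and 117, 114 and 113 CPM in the shSrsf3 -PDGF-AA samples, and with ligand 120.0, 117 and 115 CPM in scramble and 107, 109 and 108 CPM in shSrsf3 samples. Its groups did not overlap, although the decrease was small (log2 fold changes -0.23 ± 0.03 and -0.13 ± 0.03 (SE) without and with ligand, adjusted p = 5.86e-05 and 0.00672). Its paralogue *Tbx18* read 17.6, 15.8 and 17.3 CPM in the scramble -PDGF-AA samples and 15.5, 16.7 and 16 CPM in the shSrsf3 -PDGF-AA samples, and with ligand 14.2, 14.7 and 14 CPM in scramble and 14.8, 15.4 and 16.3 CPM in shSrsf3 samples. It was not called in either condition (adjusted p = 0.322 and 0.118).

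*Osr1* and *Osr2*, odd-skipped factors of which *Osr2* promotes palatal shelf growth, were lower without ligand (log2 fold changes -0.23 ± 0.05 and -0.82 ± 0.19, SE; adjusted p = 0.00345 and 0.00329) but not called with ligand (-0.03 ± 0.06 and -0.43 ± 0.20; adjusted p = 0.722 and 0.106). Whether the difference changed with ligand was tested by the interaction, which did not pass for either gene (adjusted p = 0.874 and 0.882).

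Of the AP-2 genes, which act in neural crest induction and facial prominences and are also expressed in surface ectoderm, *Tfap2a* read 7.33, 7.01 and 6.35 CPM in the scramble -PDGF-AA samples and 2.34, 2.75 and 1.96 CPM in the shSrsf3 -PDGF-AA samples. With ligand it read 6.71, 6.75 and 5.19 CPM in scramble and 2.32, 2.42 and 2.16 CPM in shSrsf3 samples. The shSrsf3 samples were below every scramble sample in both conditions (log2 fold changes -1.53 ± 0.13 and -1.43 ± 0.14 (SE) without and with ligand, adjusted p = 6.24e-07 and 2.32e-06). *Tfap2b* was not tested: it had 26 counts in scramble and 8 in shSrsf3 -PDGF-AA samples (ratio 4.12, exact 95% interval 1.81 to 10.5, counting error only). Of these 8 counts, 7 were in replicate 1. With ligand *Tfap2b* had 36 counts in scramble and 0 in shSrsf3 samples, and the exact 95% interval of the ratio begins at 5.15. *Cdh1* was lower in the same samples, and with it the summed epithelial markers, as given above, while *Epcam* and *Trp63* were not called. The part of *Cdh1* and these markers in these differences was not tested.

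Among factors of epithelial to mesenchymal transition, *Snai1*, *Zeb1* and *Twist2* differed between the lines and their paralogues were not called. *Snai1* read 132, 142 and 124 CPM in the scramble -PDGF-AA samples and 76.5, 73.1 and 80.6 CPM in the shSrsf3 -PDGF-AA samples. With ligand it read 179, 210.0 and 162 CPM in scramble and 107, 114 and 114 CPM in shSrsf3 samples. The shSrsf3 samples lay below the scramble samples of the same condition (log2 fold changes -0.79 ± 0.08 and -0.72 ± 0.08 (SE) without and with ligand, adjusted p = 2.66e-06 and 6.70e-06), while *Snai2*, which acts in neural crest migration, read 24.8, 24.1 and 23.1 CPM in the scramble -PDGF-AA samples and 23.3, 23.1 and 21 CPM in the shSrsf3 -PDGF-AA samples, and with ligand 21.7, 22.5 and 22.2 CPM in scramble and 21.7, 20.8 and 22.7 CPM in shSrsf3 samples, and its groups overlapped (adjusted p = 0.16 and 0.709). *Zeb1*, an E-box repressor, fell from 138 ± 7.93 to 112 ± 1.72 CPM without and from 132 ± 3.07 to 112 ± 3.87 CPM with ligand (SD, n = 3; log2 fold changes -0.30 ± 0.04 and -0.23 ± 0.04 (SE) without and with ligand, adjusted p = 8.93e-05 and 0.000901). *Zeb2* was at 37.3 ± 3.27 and 40.3 ± 1.69 CPM without ligand and was not called in either condition. *Twist1* read 61.8, 65 and 65.2 CPM in the scramble -PDGF-AA samples and 65.6, 67.2 and 63.5 CPM in the shSrsf3 -PDGF-AA samples, and with ligand 63.9, 62.8 and 60.1 CPM in scramble and 66.1, 65.4 and 63.5 CPM in shSrsf3 samples. These 12 values span a narrow range and the groups overlapped (adjusted p = 0.551 and 0.24). *Twist2*, a dermal and cranial bHLH factor, read 23.2, 23.1 and 23 CPM in the scramble -PDGF-AA samples and 33.8, 33.5 and 34.2 CPM in the shSrsf3 -PDGF-AA samples, and with ligand 26.6, 22.9 and 23.9 CPM in scramble and 33.8, 35.5 and 40.7 CPM in shSrsf3 samples. It was higher in every shSrsf3 sample (log2 fold changes 0.55 ± 0.06 and 0.58 ± 0.06 (SE) without and with ligand, adjusted p = 1.23e-05 and 8.57e-06).

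The 7 forkhead genes were all tested, and 4 were higher and 3 lower in shSrsf3 samples without ligand. *Foxp2*, a repressor known for its role in brain circuits and also expressed in facial mesenchyme, rose most. *Foxp2* read 1.9, 1.66 and 1.74 CPM in the scramble -PDGF-AA samples and 4.87, 5.82 and 4.83 CPM in the shSrsf3 -PDGF-AA samples, and with ligand 1.44, 1.75 and 1.68 CPM in scramble and 4.73, 5.45 and 5.02 CPM in shSrsf3 samples. Every shSrsf3 sample was far above every scramble sample (log2 fold changes 1.56 ± 0.12 and 1.64 ± 0.12 (SE) without and with ligand, adjusted p = 2.12e-07 and 1.64e-07). *Foxp1*, whose mean level of 122 CPM per kb stands beside 0.5 for *Foxp2*, was slightly lower without ligand and was not called with ligand (log2 fold changes -0.16 ± 0.05 and -0.07 ± 0.05 (SE) without and with ligand, adjusted p = 0.0196 and 0.257). *Foxd1*, a stromal factor, rose (log2 fold changes 0.82 ± 0.07 and 0.93 ± 0.07 (SE) without and with ligand, adjusted p = 3.20e-07 and 1.25e-07), as did *Foxf1* and *Foxf2*, Hedgehog-responsive factors of the palate (log2 fold changes 0.24 and 0.20 for *Foxf1* and 0.46 and 0.51 for *Foxf2*). *Foxc2*, a factor of skull and vessel mesenchyme, read 45.8, 44.4 and 43.1 CPM in the scramble -PDGF-AA samples and 34.1, 30.6 and 33.7 CPM in the shSrsf3 -PDGF-AA samples, and with ligand 45.1, 44.4 and 42.3 CPM in scramble and 32.6, 33.3 and 37.3 CPM in shSrsf3 samples, and fell without overlap (log2 fold changes -0.44 ± 0.06 and -0.35 ± 0.06 (SE) without and with ligand, adjusted p = 2.62e-05 and 0.000212). Its paralogue *Foxc1* read 50.3, 48.9 and 50.5 CPM in the scramble -PDGF-AA samples and 46.2, 47 and 44.9 CPM in the shSrsf3 -PDGF-AA samples, and with ligand 42.8, 44.9 and 43.7 CPM in scramble and 40.6, 41.1 and 41.6 CPM in shSrsf3 samples. The decrease of *Foxc1* was called without ligand only (log2 fold changes -0.11 ± 0.04 and -0.09 ± 0.04 (SE) without and with ligand, adjusted p = 0.0174 and 0.0606), and that call was lost in 3 of 12 fits that left out 1 sample (without replicate 1 or 3 of scramble -PDGF-AA or replicate 3 of shSrsf3 -PDGF-AA), without the filter on low counts, with a term for mapping rate and at equal depth. Forkhead neighbours on the genome did not share a direction: *Foxf1* rose and *Foxc2* fell at a distance of 28.026 kb on chromosome 8, and *Foxf2* rose and *Foxc1* fell without ligand at 174.222 kb on chromosome 13.

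The SOXC factors *Sox4* and *Sox11*, which maintain mesenchymal progenitors, were both lower. *Sox4* read 189, 184 and 157 CPM in the scramble -PDGF-AA samples and 101, 102 and 102 CPM in the shSrsf3 -PDGF-AA samples, and with ligand 122, 139 and 123 CPM in scramble and 92.9, 90.6 and 89 CPM in shSrsf3 samples. All shSrsf3 samples were below all scramble samples of the same condition (log2 fold changes -0.80 ± 0.06 and -0.50 ± 0.07 (SE) without and with ligand, adjusted p = 3.85e-07 and 3.72e-05). *Sox11* read 52.7, 51.5 and 49.3 CPM in the scramble -PDGF-AA samples and 39.9, 38.6 and 44.5 CPM in the shSrsf3 -PDGF-AA samples, and with ligand 53.8, 54.5 and 51.5 CPM in scramble and 43.6, 44.7 and 47.4 CPM in shSrsf3 samples, and its groups were also apart (log2 fold changes -0.32 ± 0.05 and -0.24 ± 0.05 (SE) without and with ligand, adjusted p = 0.000289 and 0.00328). Of the COUP-TF receptors, which mark the maxillary mesenchyme, *Nr2f2* read 173, 171 and 155 CPM in the scramble -PDGF-AA samples and 201, 193 and 190.0 CPM in the shSrsf3 -PDGF-AA samples, and with ligand 166, 179 and 171 CPM in scramble and 201, 210.0 and 212 CPM in shSrsf3 samples, and rose by a small amount (log2 fold changes 0.23 ± 0.05 and 0.27 ± 0.05 (SE) without and with ligand, adjusted p = 0.00125 and 0.000347). *Nr2f1* read 32.7, 36 and 31.5 CPM in the scramble -PDGF-AA samples and 35, 34.9 and 34.4 CPM in the shSrsf3 -PDGF-AA samples, and with ligand 28.1, 31.7 and 28.2 CPM in scramble and 32.8, 33 and 31.4 CPM in shSrsf3 samples, and was not called in either condition (adjusted p = 0.402 and 0.0569). *Eya1*, a phosphatase and transcriptional coactivator, rose from 16.5 ± 2.05 to 27.2 ± 0.798 CPM without and from 17.3 ± 1.52 to 27 ± 0.905 CPM with ligand (SD, n = 3; log2 fold changes 0.72 ± 0.08 and 0.64 ± 0.08 (SE) without and with ligand, adjusted p = 5.29e-06 and 1.77e-05). *Mn1*, a coregulator needed for the posterior palate, fell (log2 fold changes -0.37 ± 0.08 and -0.27 ± 0.08 (SE) without and with ligand, adjusted p = 0.00209 and 0.0165), and *Ets1*, a neural crest factor, was not called (adjusted p = 0.402 and 0.761).

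**Figure D4:**
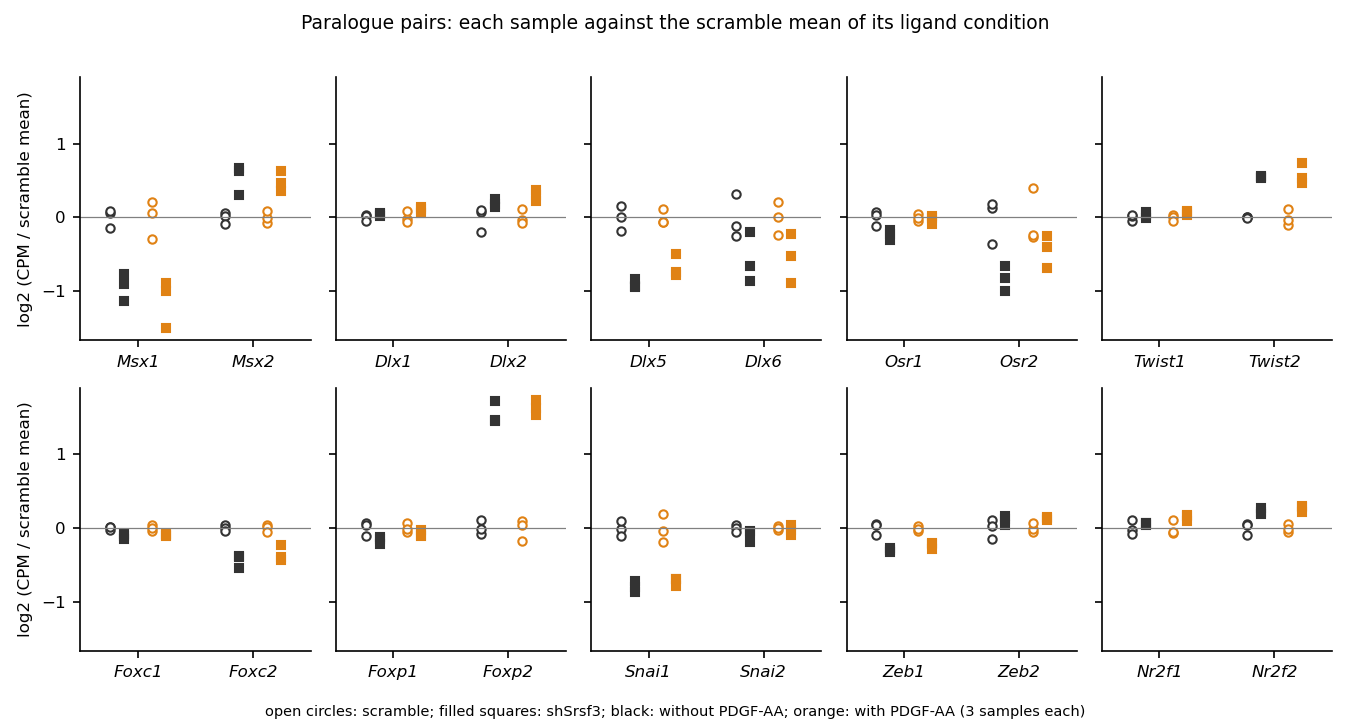
Each sample's CPM as log2 of its ratio to the scramble mean of its ligand condition, for 10 paralogue pairs (open circles, scramble; filled squares, shSrsf3; black without and orange with PDGF-AA). *Msx1* lies below and *Msx2* above the scramble samples, *Snai1*, *Zeb1*, *Foxc2* and *Dlx5* lie below, and *Twist2*, *Foxp2* and *Nr2f2* lie above, while *Twist1*, *Snai2* and *Nr2f1* stay near 0.

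Members were also read by the region of the face with which they are associated, in small lists drawn up with earlier results of these data known. The list of maxillary and proximal mandibular mesenchyme held 5 genes (*Dlx1*, *Dlx2*, *Lhx6*, *Lhx8* and *Barx1*). Of these, 4 rose and none fell in both conditions, with median log2 fold changes of 0.43 and 0.60. Of the 5 frontonasal genes (*Alx1*, *Alx4*, *Pax3*, *Tfap2b* and *Six2*), 4 were tested and 3 fell in both conditions, with medians of -0.88 and -0.80. The genes of the distal lower jaw (*Dlx3*, *Dlx4*, *Dlx5*, *Dlx6*, *Hand2* and *Pitx1*) included 4 tested, of which *Dlx5* fell in both conditions, *Dlx6* was not called, and *Dlx3* and *Pitx1* rest on few counts. The anterior palate genes did not move together: *Shox2* rose while *Msx1* and *Alx4* fell. Nor did the posterior palate genes, of which *Barx1* rose, *Mn1* fell, *Meox2* was not tested and *Tbx22* was at 0. The neural crest specifiers (*Sox10*, *Pax3*, *Tfap2a*, *Tfap2b*, *Ets1*, *Snai2*, *Twist1* and *Foxc1*) included 3 that fell without and 2 that fell with ligand among the 6 tested. Of all genes tested, 22.2% were higher and 23.7% lower without ligand, and 20.3% and 20.7% with ligand. The medians of all genes, -0.02 and -0.01, also stand beside these values, and no list was tested as a set.

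The second question was how the members responded to 1 hr of PDGF-AA. In scramble cells 2 of the 47 tested members were higher upon stimulation (4.26%, against 2% of all genes) and 10 were lower (21.3%, against 2.04%). The median log2 fold change of the tested members was -0.11, beside -0.01 over all genes. *Dlx3*, among those higher, passed the filter through stimulated samples alone. In shSrsf3 cells 1 member was higher (2.13%, against 0.426% of all genes), and none was lower in edgeR's test (0.14% of all genes), although 12 of the 47 members had an unadjusted p below 0.05 in either direction, beside 9.44% of all genes, and DESeq2 called 1 lower. The scramble and shSrsf3 responses share no sample. The number lower in scramble cells depends on single libraries: it was 6 without the 3 libraries of lower mapping rate, 4 without replicate 1 and 5 without replicate 3 of scramble +PDGF-AA, and 16 without replicate 3 of scramble -PDGF-AA. Whether the number over all genes moved alike in these fits is not given.

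*Snai1* was the only member called in both lines. Its values, given above, were higher in all 3 stimulated than in all 3 unstimulated samples of each line (log2 fold change 0.47 ± 0.08 (SE) in scramble, adjusted p = 0.00398, and 0.54 ± 0.08 in shSrsf3 cells, adjusted p = 0.0061), and the call in shSrsf3 cells was lost without replicate 1 or without replicate 2 of shSrsf3 -PDGF-AA (adjusted p = 0.0512 and 0.053). *Snai2* was not called in either line. *Snai1* lies at chr2:167380113-167384734 (GRCm39), and its promoter is shown because it is the member called upon ligand in both lines (RefSeq, GRCm38.p6, chr2:167537945-167538244, + strand, from 250 bases before to 50 after the start; capitals mark an E-box, CACCTG):

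Snai1 promoter: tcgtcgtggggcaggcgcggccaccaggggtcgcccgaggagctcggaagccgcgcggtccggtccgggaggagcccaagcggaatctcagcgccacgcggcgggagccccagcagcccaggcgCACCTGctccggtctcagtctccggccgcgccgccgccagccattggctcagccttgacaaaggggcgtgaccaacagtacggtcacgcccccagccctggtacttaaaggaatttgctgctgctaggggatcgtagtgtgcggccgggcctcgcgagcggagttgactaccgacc

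This E-box was the only match to CANNTG in these 300 bases on either strand. CANNTG is found in 72.3% of all 32544 promoters of the same length and the narrower CACCTG, which overlaps it, in 20.3%. The cyclic AMP element TGACGTCA (1.8% of promoters), the AP-1 site TGANTCA (7.79%) and the CArG box (1.64%) had no match in this window. The other gene called higher in scramble cells, *Dlx3*, had 4, 4 and 6 counts without and 17, 16 and 29 counts with ligand. All 3 stimulated samples were higher, but *Dlx3* passed the filter only through stimulated samples, so that its call is no support for a response, and the call was lost in 9 of 12 fits that left out 1 sample.

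The 10 members called lower in scramble cells were *Dlx5*, *Prrx1*, *Pax3*, *Pax9*, *Lhx6*, *Lhx8*, *Tbx15*, *Tbx18*, *Foxc1* and *Sox4*. Their values in every sample are given above, and in each of the 10 genes all 3 stimulated scramble samples were below all 3 unstimulated ones. These are the samples that gave the calls, so the lack of overlap is no further support. The share of all genes without overlap upon ligand is not given. Among them *Sox4* fell most (log2 fold change -0.46 ± 0.06 (SE) in scramble, adjusted p = 0.00115, and -0.16 ± 0.07 in shSrsf3 cells, adjusted p = 0.421). *Dlx5* followed (log2 fold change -0.43 ± 0.08 (SE) in scramble, adjusted p = 0.0116, and -0.21 ± 0.09 in shSrsf3 cells, adjusted p = 0.512), then *Pax3* (log2 fold change -0.36 ± 0.06 (SE) in scramble, adjusted p = 0.00249, and -0.22 ± 0.06 in shSrsf3 cells, adjusted p = 0.166). They include both *Pax* genes, both *Lhx* genes and a pair of T-box genes. In the comparison of the lines, which uses the same samples, *Lhx6* and *Lhx8* were higher in shSrsf3 samples whereas *Sox4*, *Dlx5* and *Pax3* were lower. *Lhx8* (log2 fold change -0.32 ± 0.07 (SE) in scramble, adjusted p = 0.0254, and -0.16 ± 0.07 in shSrsf3 cells, adjusted p = 0.485) and *Pax9* (log2 fold change -0.30 ± 0.06 (SE) in scramble, adjusted p = 0.0111, and -0.24 ± 0.06 in shSrsf3 cells, adjusted p = 0.15) fell by similar amounts. *Tbx18*, *Lhx6*, *Tbx15*, *Foxc1* and *Prrx1* fell by less, with log2 fold changes of -0.24, -0.20, -0.19, -0.19 and -0.16 (adjusted p = 0.0248, 0.0318, 0.00414, 0.00906 and 0.0435). The calls for *Pax3*, *Tbx15*, *Foxc1* and *Sox4* held in all 12 fits that left out 1 sample, those for *Dlx5* and *Lhx8* in 10, *Pax9* and *Tbx18* in 9, *Lhx6* in 6 and *Prrx1* in 2. Without the 3 libraries of lower mapping rate *Dlx5*, *Prrx1*, *Lhx6* and *Tbx15* were no longer called.

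**Figure D5:**
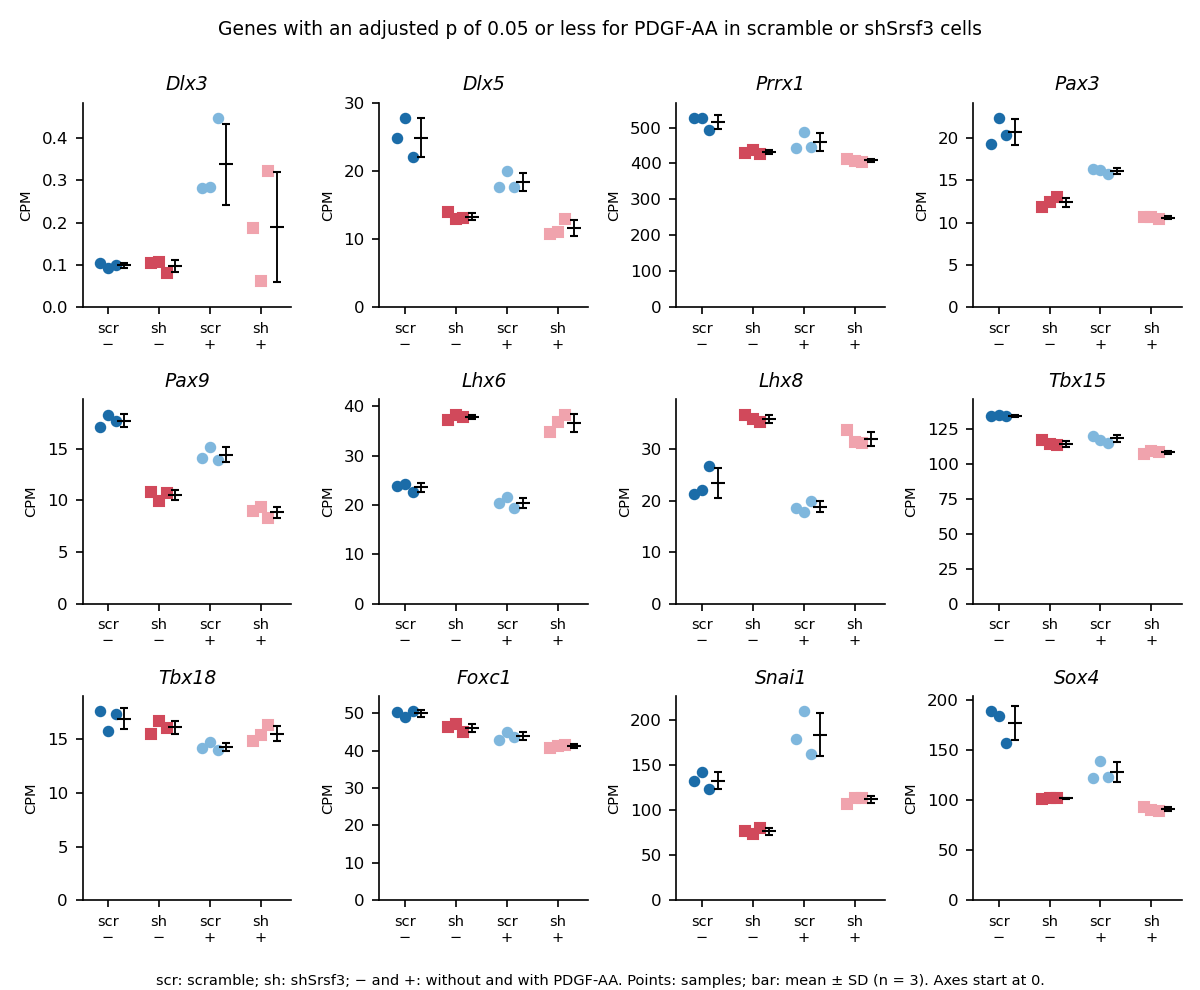
CPM in each sample for the 12 genes called upon PDGF-AA in scramble or shSrsf3 cells, each with its own axis from 0, and mean ± SD (n = 3) beside the points. *Snai1* is higher with ligand in both lines. *Sox4*, *Dlx5* and *Pax3* are lower with ligand in scramble cells, and *Dlx3* stays under 0.5 CPM.

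Whether the response differed between the lines was tested directly as an interaction. No member passed (0.0133% of all genes did), the smallest adjusted p among the members being 0.715 in edgeR's test, and DESeq2 and limma-voom also called none. At an unadjusted p below 0.05 there were 6 members, beside 833 of all 15037 genes. *Sox4* had the smallest of these, with a log2 response in shSrsf3 minus that in scramble cells of 0.30 ± 0.09 (SE; unadjusted p = 0.00599, adjusted p = 0.715). The responses of *Sox4*, *Dlx5* and *Pax3*, called in scramble but not in shSrsf3 cells, are thus not shown to differ between the lines. In shSrsf3 cells *Sox4* was called lower without the 3 libraries of lower mapping rate (-0.16, adjusted p = 0.0198). Without the filter on low counts, *Sox4* passed the interaction.

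Genes that act with these factors were read from further lists. Of 80 other transcription factors of head mesenchyme, 56 were tested, and 6 were higher and 28 lower in shSrsf3 samples without ligand, and 5 and 26 with ligand, with medians of -0.30 and -0.28. The background for this and the following lists is that 22.2% of all genes were higher and 23.7% lower without ligand, and 20.3% and 20.7% with ligand. Among those that fell were *Gata3*, a zinc finger factor of the lower jaw (log2 fold changes -1.57 and -1.34), and *Gsc*, a homeobox target of Dlx5 and Dlx6 in the jaw (-1.30 and -1.54). Among 11 PBX, MEIS and related cofactors, which bind DNA together with homeobox factors, 2 were higher and 6 lower without ligand and 2 higher and 3 lower with ligand. *Pbx3* fell (log2 fold changes -1.23 ± 0.04 and -1.23 ± 0.04 (SE) without and with ligand, adjusted p = 1.32e-10 and 2.34e-10), while *Pknox2* rose (1.11 and 0.84). In the endothelin pathway, which acts upstream of *Dlx5* and *Dlx6* in the lower jaw, 8 of 10 genes were tested, and 1 was higher and 3 were lower in both conditions. The receptor gene *Ednra* fell (log2 fold changes -1.04 ± 0.17 and -1.21 ± 0.18 (SE) without and with ligand, adjusted p = 0.000191 and 0.000103), as did the ligand gene *Edn1* (-0.24 and -0.47). Of 16 genes of BMP signaling, which induces *Msx* and *Tbx* genes, 15 were tested, and 4 were higher and 5 lower without and 5 higher and 3 lower with ligand. The antagonist gene *Nog* fell (-1.35 and -1.10) and *Chrdl1*, another antagonist gene, rose (1.22 and 1.01).

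Replicates were close for most members. The median coefficient of variation over the tested members was 6.14% in scramble -PDGF-AA, 4.04% in shSrsf3 -PDGF-AA, 5.3% in scramble +PDGF-AA and 4.86% in shSrsf3 +PDGF-AA samples, beside 7.15%, 4.46%, 5.48% and 5.51% over all genes tested.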

How the data were processed

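RNA was sequenced from 12 samples in 4 groups of 3. The authors trimmed reads with BBDuk, quantified them with Salmon 1.4.0 against GENCODE M26 (GRCm39) and deposited expected counts per gene (the stage of tximport scaling is not given in the sources used here); 16.25% of the values are not whole, and they were rounded. The 53 genes and all further lists were chosen with earlier results of these data known.

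All 15037 genes that passed edgeR's filterByExpr (minimum count 10) were fitted with TMM scaling and a mean per group by edgeR 4.0.16 (R 4.3.3), in quasi-likelihood tests with Benjamini-Hochberg adjustment over all genes tested. The procedure was tested on simulated counts. CPM values use the TMM library sizes. A call is an adjusted p of 0.05 or less. Values are given in every sample for members called at 2-fold or more between the lines, members called upon ligand, the 5 highest per length, and their paralogues; other members were added, with their values known, to complete families. From each further list up to 3 genes with the largest change are named, and some results are not reported here.

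Alternatives were DESeq2 1.42.0, limma-voom (limma 3.58.1), other scalings, no filter, thinning to equal depth, a replicate block, a term for or removal of the 3 libraries of lower mapping rate, and leaving out each sample. Depth ranged from 30958870 to 76123207 counts. Intervals of ratios cover counting error only. Sequences were read from GENCODE M39 (GRCm39) and RefSeq (GRCm38.p6) with Python 3.11.15, pandas 2.3.3, numpy 2.4.6 and scipy 1.17.1. Figures were drawn with matplotlib 3.10.9.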

Additional observations from a re-analysis of the deposited data

How the results depend on the processing

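None of the counts reversed under the alternatives run, and neither did any call of the 19 genes called at 2-fold between the lines or upon ligand. Counts under alternatives are over all 53 genes, since the genes tested can differ between fits. The shares of all genes called in these fits are not given. The counts therefore do not show whether the members moved apart from all genes. Across fits that left out 1 sample each, the members higher and lower in shSrsf3 samples numbered 12 to 14 and 20 to 23 without ligand and 14 to 17 and 17 to 20 with ligand. At 2-fold or more they numbered 2 to 2 and 3 to 5 without, and 2 to 3 and 2 to 6 with ligand, the 2 lower being *Alx4* and *Tfap2a* without scramble +PDGF-AA replicate 2. Upon ligand, 1 to 2 members were higher and 4 to 16 lower in scramble cells, 0 to 1 were higher and 0 to 1 lower in shSrsf3 cells, and 0 to 0 were called in the interaction. The count of 4 came without replicate 1 and that of 5 without replicate 3 of scramble +PDGF-AA, and that of 16 without replicate 3 of scramble -PDGF-AA.

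Thinned to equal depth, 2 members were at least 2-fold lower in shSrsf3 -PDGF-AA samples (*Alx4* and *Tfap2a*), 1 was higher upon ligand in scramble cells and 1 was lower in shSrsf3 cells. Without a filter on low counts, 4 members were higher upon ligand in scramble and 3 in shSrsf3 cells, and 1 (*Sox4*) passed the interaction. With DESeq2, 1 was higher in scramble, 2 were higher in shSrsf3 and 1 was lower in shSrsf3 cells. Without the 3 libraries of lower mapping rate, 1 was higher and 6 were lower in scramble and 2 were lower in shSrsf3 cells, and with a term for these libraries 1 was higher in scramble, 2 were higher in shSrsf3 and 2 were lower in shSrsf3 cells. The cause was not tested.

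The labels number the replicates 1 to 3 in each group, but same-numbered samples did not deviate together (correlations of -0.14 to 0.20). With a replicate block the counts were 14 and 22 without ligand, 16 and 19 with ligand, 2 and 12 upon ligand in scramble cells, 1 and 0 in shSrsf3 cells, and 0 in the interaction. Of the values for these 19 genes under alternatives, 1424 kept the call or its absence, 55 lost the call and 9 gained one. A change of sign where neither value was called is counted among the 1424. At the depth of these libraries *Dlx3*, *Dlx4*, *Meox2*, *Pitx1* and *Tfap2b* could be read as counts only.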
